A study of Mus musculus with 18 samples.

Results

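The 8 genes described here were Tnfsf11, which encodes the cytokine RANKL, its receptor genes Tnfrsf11a (RANK) and Tnfrsf11b (osteoprotegerin), the secreted Wnt pathway genes Rspo1 and Wnt4, and 3 genes that vary with RANKL, Gjb2, Wfdc12 and Serpinb11. They were taken as the probe sets annotated to exactly 1 of these symbols, which gave 12 of the 34945 probe sets with 1 gene symbol and 8 of the 18193 genes measured. Their values in RonTK+/+ glands at 7 weeks were used to choose Gjb2, Wfdc12 and Serpinb11 and to group them with RANKL, and no threshold was named. All values of that group are therefore descriptions, and tests were run only on comparisons that did not use it.

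Total RNA from whole mammary glands of virgin female mice was measured on 18 arrays, in 6 groups of 3. RonTK-/- mice lack the tyrosine kinase domain of the receptor Ron, RonTK+/+ mice were the controls, and each genotype was sampled at 5, 6 and 7 weeks of age. Mice of neither genotype had received a treatment, as far as the labels say. Each deposited value is a ratio, for most probe sets to a median of the RonTK+/+ arrays, so a value of 1 is close to that median and the absolute level of a gene is unknown. Levels are therefore never set against each other between genes, and whether the defining markers of mammary epithelium reached a given level could not be read from these values. The labels do not say whether the 3 arrays of a group came from separate animals, so p-values measure the spread between these arrays, which may be technical. In RNA of whole glands, fewer cells of a type and less RNA per cell cannot be told apart.

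RANKL is a paracrine signal of the mammary gland. Progesterone acts on hormone receptor-positive luminal cells, which secrete RANKL and Wnt4, and neighbouring cells that carry RANK or Wnt receptors respond by dividing and forming side branches. R-spondin 1 strengthens Wnt signalling through Lgr receptors, osteoprotegerin is a soluble decoy that binds RANKL, and activated T lymphocytes are another known source of RANKL.

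The stretches upstream of the start sites of 4 of these genes are shown first, chosen by role: the paracrine signal genes Tnfsf11, Rspo1 and Wnt4, which do not share 1 pattern below, and Gjb2 as 1 of the 3 co-varying genes. Promoter windows of 7 of the 8 genes were found by symbol in RefSeq's table (assembly GRCm38.p6), and Tnfrsf11b was not among them. Each stretch is 200 bases, from 250 to 51 bases before the start site, read 5′ to 3′ on the strand of the gene, and capitals mark the letters that match a searched motif. The stretches lie at chr14:78308094-78308293 (minus strand) for Tnfsf11, chr4:124986180-124986379 (plus strand) for Rspo1, chr4:137277385-137277584 (plus strand) for Wnt4 and chr14:57104753-57104952 (minus strand) for Gjb2.
Tnfsf11: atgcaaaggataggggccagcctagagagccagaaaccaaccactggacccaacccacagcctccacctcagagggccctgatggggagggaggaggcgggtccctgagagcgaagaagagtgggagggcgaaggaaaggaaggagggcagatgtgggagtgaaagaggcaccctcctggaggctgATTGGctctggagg
Rspo1: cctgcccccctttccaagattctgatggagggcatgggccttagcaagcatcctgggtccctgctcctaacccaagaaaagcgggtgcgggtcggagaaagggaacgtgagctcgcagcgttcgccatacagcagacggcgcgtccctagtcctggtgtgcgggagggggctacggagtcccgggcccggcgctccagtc
Wnt4: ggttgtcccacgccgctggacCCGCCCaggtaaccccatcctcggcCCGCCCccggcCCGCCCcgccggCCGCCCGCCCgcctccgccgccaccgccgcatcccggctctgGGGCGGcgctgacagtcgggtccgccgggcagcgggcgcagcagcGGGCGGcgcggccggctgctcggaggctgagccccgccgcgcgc
Gjb2: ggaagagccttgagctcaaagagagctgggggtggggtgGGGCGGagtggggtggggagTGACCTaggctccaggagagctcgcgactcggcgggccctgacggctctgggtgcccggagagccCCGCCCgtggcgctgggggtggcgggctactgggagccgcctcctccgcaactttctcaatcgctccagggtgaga

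The letters searched, on both strands of the whole window of 300 bases, were TGTTCT (a progesterone and glucocorticoid receptor half-site), TTCNNNGAA (STAT), AGGTCA (an oestrogen receptor half-site), CTTTGAT (TCF and LEF), TGANTCA (AP-1), GGGCGG (GC box), CCAAT and TATAAA. The Wnt4 window held 8 GC boxes, 2 of them overlapping in the run CCGCCCGCCC, and the Gjb2 window held 2 GC boxes and 1 oestrogen receptor half-site. A GC box occurs in 35.7% of all 32851 windows of this length and the oestrogen half-site in 16.3%. The Tnfsf11 window held CCAAT on the opposite strand, as in 37.4% of all windows, and TATAAA on the opposite strand 32 bases before the start, beyond the stretch shown, as in 13.6% of windows. No searched letters were found in the windows of Rspo1 and Wfdc12. The Serpinb11 window held 2 AP-1 letter runs (7.81% of all windows hold any) and 1 CCAAT, and that of Tnfrsf11a held 5 GC boxes. The half-site TGTTCT (19.0% of all windows) and the STAT letters (8.30%) were not found in these 7 windows. These matches describe letters and not binding.

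Tnfsf11 was high on 2 of the 18 arrays, both of RonTK+/+ glands at 7 weeks. Its ratios on RonTK+/+ arrays 1, 2 and 3 were 0.968, 1.51 and 0.463 at 5 weeks and 0.443, 1.74 and 0.993 at 6 weeks. On RonTK-/- arrays they were 0.915, 0.469 and 1.09 at 5 weeks and 1.15, 1.19 and 1.18 at 6 weeks. At 7 weeks they were 8.97, 9.27 and 0.427 in RonTK+/+ glands and 0.458, 0.492 and 0.556 in RonTK-/- glands. Arrays 1 and 2 of the RonTK+/+ group at 7 weeks thus stood above all others, while its array 3 was the lowest of all 18. The groups at 7 weeks overlapped for that reason. The mean log2 ratio of the RonTK+/+ group at 7 weeks was 1.72 ± 2.55 (SD, n = 3). It was 3.19 without array 3, 0.97 without array 2 and 0.99 without array 1. That of the RonTK-/- group at 7 weeks, which was the lowest of the 6, was -1.0 ± 0.14 (SD, n = 3). No 2 neighbours in the order of the group means differed by more than their spread. Both probe sets of Tnfsf11 gave the pattern, with ratios of 8.95, 10.6 and 0.341 for one and 8.99, 8.10 and 0.536 for the other on RonTK+/+ arrays 1, 2 and 3 at 7 weeks, and a correlation of 0.98 over the 18 arrays.

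**Figure D1:**
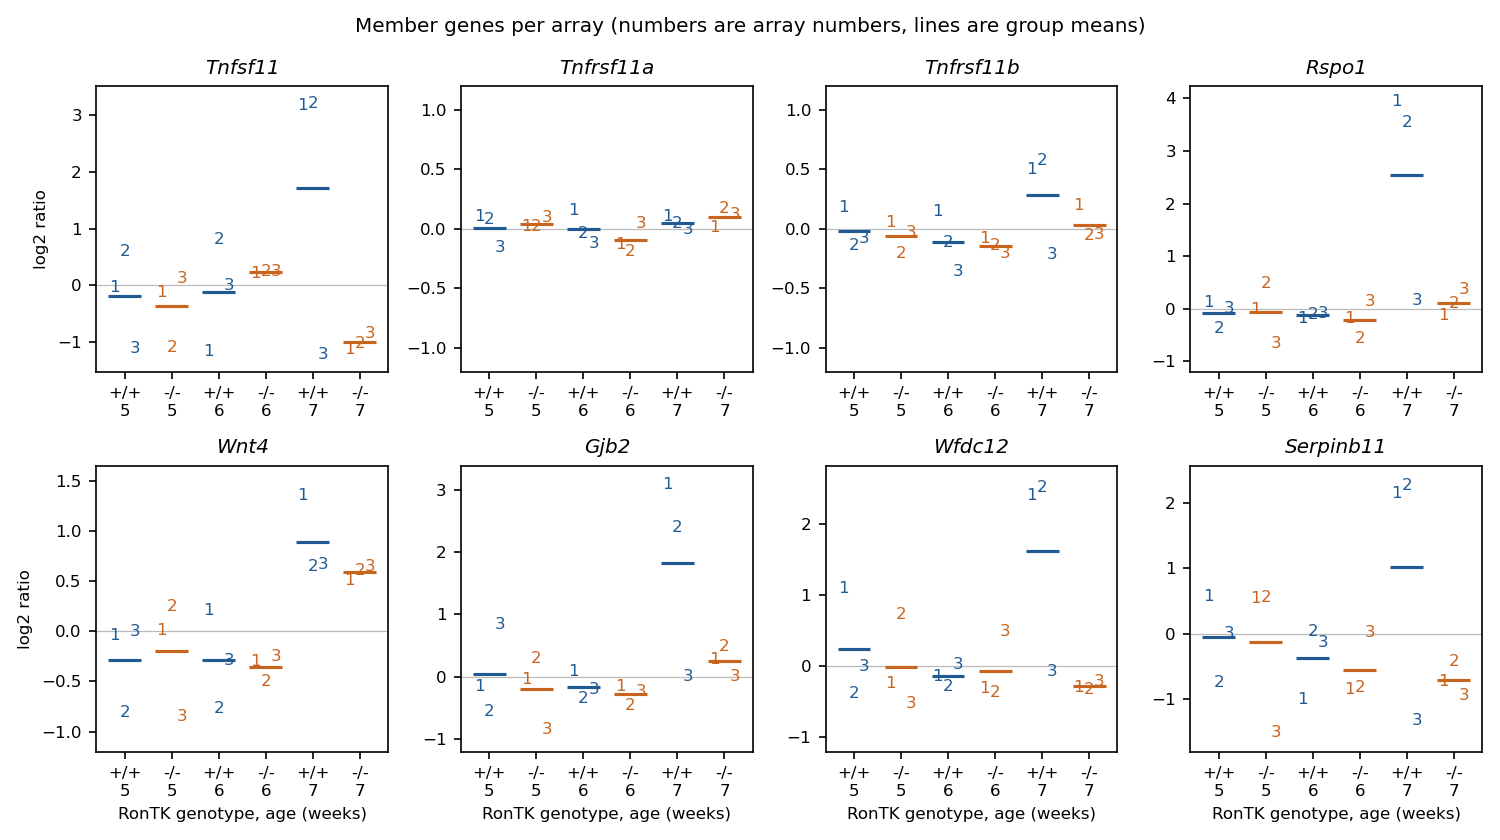
Log2 ratio of each of the 8 genes (vertical axes, each panel with its own scale) in the 6 groups (horizontal axes: RonTK genotype and age in weeks). Numerals are the array numbers within a group, blue for RonTK+/+ and orange for RonTK-/-, and lines are group means of 3 arrays. Arrays 1 and 2 of RonTK+/+ at 7 weeks lie above the other 15 arrays outside that group for every gene but Tnfrsf11a, and array 3 does so for Wnt4 alone. Values are means over the probe sets of a gene, and neither Wnt4 probe set alone put both arrays 2 and 3 above the 15. One Tnfrsf11b probe set alone did not put array 2 above the 15.

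The RANKL receptors did not share this range. Tnfrsf11a, the signalling receptor, lay between 0.875 and 1.13 on the 15 arrays outside RonTK+/+ at 7 weeks, and at 1.08, 1.03 and 0.995 on the 3 arrays of that group. Its groups overlapped at every age. Tnfrsf11b, the decoy receptor, lay between 0.782 and 1.15 on the 15 arrays and at 1.41, 1.49 and 0.863 on the 3. Arrays 1 and 2 were again the higher ones, and array 3 lay within the range of the others. The 2 probe sets of Tnfrsf11b disagreed. On array 2 of the RonTK+/+ group at 7 weeks one gave 2.21 and the other 1.00, a gap of 1.14 on the log2 scale, and their correlation over the 18 arrays was 0.31. The 2 probe sets of Tnfrsf11a correlated at 0.30, over ranges of 0.903 to 1.23 and 0.815 to 1.21.

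Rspo1, the R-spondin gene, was high on the same 2 arrays as Tnfsf11. Its ratios on RonTK+/+ arrays 1, 2 and 3 were 1.09, 0.776 and 1.00 at 5 weeks and 0.885, 0.928 and 0.935 at 6 weeks. On RonTK-/- arrays they were 0.995, 1.39 and 0.636 at 5 weeks and 0.875, 0.673 and 1.10 at 6 weeks. At 7 weeks they were 15.3, 11.7 and 1.12 in RonTK+/+ glands and 0.914, 1.07 and 1.29 in RonTK-/- glands. The 16 other arrays thus lay within 0.636 and 1.39, and array 3 of the RonTK+/+ group fell among the RonTK-/- values. The RonTK+/+ group mean at 7 weeks was 2.55 ± 2.08 on the log2 scale (SD, n = 3), with 3.74 without array 3, 2.05 without array 2 and 1.85 without array 1. With all 3 arrays it exceeded the next group mean, that of RonTK-/- at 7 weeks (0.11 ± 0.25, SD, n = 3), by 2.44, more than the SD of either group.

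Wnt4, the progesterone-induced Wnt ligand of luminal cells, had another pattern: it was high on all 6 arrays at 7 weeks. Its ratios on RonTK+/+ arrays 1, 2 and 3 were 0.975, 0.570 and 0.997 at 5 weeks and 1.15, 0.588 and 0.815 at 6 weeks. On RonTK-/- arrays they were 1.00, 1.19 and 0.553 at 5 weeks and 0.813, 0.705 and 0.841 at 6 weeks. At 7 weeks they were 2.55, 1.57 and 1.59 in RonTK+/+ glands and 1.43, 1.52 and 1.56 in RonTK-/- glands. Array 1 of the RonTK+/+ group stood apart by less than for Tnfsf11 and Rspo1, and arrays 2 and 3 lay just above the RonTK-/- values. In these means over the probe sets the groups at 7 weeks did not overlap, by the margin between 1.57 and 1.56. On each probe set alone they overlapped, where a different RonTK+/+ array (array 3 or array 2) lay below RonTK-/- array 3. The separation of the genotypes thus rests on the averaging. The 2 probe sets correlated at 0.98 over the 18 arrays. Of the neighbours in the order of the group means, RonTK-/- at 7 weeks (0.59 ± 0.07, SD, n = 3) exceeded RonTK-/- at 5 weeks (-0.20 ± 0.58, SD, n = 3) by more than the spread, with a gap of 0.79.

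Gjb2, which encodes a gap junction protein of epithelia, gave 8.48, 5.23 and 1.00 on RonTK+/+ arrays 1, 2 and 3 at 7 weeks and 1.21, 1.40 and 1.00 on RonTK-/- arrays. Its 5 week ratios were 0.903, 0.684 and 1.79 in RonTK+/+ and 0.970, 1.23 and 0.559 in RonTK-/- glands. At 6 weeks they were 1.06, 0.783 and 0.868 in RonTK+/+ and 0.898, 0.728 and 0.853 in RonTK-/- glands. The 2 high arrays were those of Tnfsf11 and Rspo1, and the groups overlapped at each age. Wfdc12, a member of the whey acidic protein family of protease inhibitors, gave 5.30, 5.75 and 0.956 in RonTK+/+ and 0.814, 0.801 and 0.861 in RonTK-/- glands at 7 weeks. Its ratios at 5 weeks were 2.15, 0.771 and 1.00 in RonTK+/+ and 0.845, 1.66 and 0.699 in RonTK-/- glands, and at 6 weeks 0.904, 0.819 and 1.02 against 0.807, 0.773 and 1.40. For Wfdc12 the groups at 7 weeks did not overlap, where 0.956 on RonTK+/+ array 3 lay next to 0.861, the highest RonTK-/- value, and at 5 and 6 weeks they overlapped. Serpinb11, a clade B serpin, gave 4.40, 4.80 and 0.397 in RonTK+/+ and 0.604, 0.746 and 0.518 in RonTK-/- glands at 7 weeks. Its ratios at 5 weeks were 1.48, 0.598 and 1.00 in RonTK+/+ and 1.46, 1.47 and 0.353 in RonTK-/- glands, and at 6 weeks 0.498, 1.02 and 0.908 against 0.554, 0.567 and 1.01. Like Tnfsf11, Serpinb11 was lower on RonTK+/+ array 3 than on any RonTK-/- array at 7 weeks. The group means of RonTK+/+ at 7 weeks were 1.82 ± 1.62 for Gjb2, 1.62 ± 1.46 for Wfdc12 and 1.02 ± 2.04 for Serpinb11 on the log2 scale (SD, n = 3 each), and 2.74, 2.47 and 2.20 without array 3. Without array 2 they were 1.54, 1.17 and 0.40, and without array 1 they were 1.19, 1.23 and 0.46. No neighbours in the order of group means of these 3 genes differed by more than their spread.

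Within RonTK+/+ at 7 weeks, array 1 held 5 of the 8 genes at a ratio of 4 or more (0.0989% of all 18193 genes, or 18 genes), array 2 held 5 (0.0385%, 7 genes) and array 3 held 0 (0.0385%, 7 genes). The 5 were Tnfsf11, Rspo1, Gjb2, Wfdc12 and Serpinb11 on both arrays. Nothing is read from these counts, because the genes were chosen on these arrays. On array 2 Rspo1 had the highest ratio of all genes, Tnfsf11 the second, Wfdc12 the 4th, Gjb2 the 5th and Serpinb11 the 6th. On array 1 Rspo1 ranked 3, Tnfsf11 5, Gjb2 6, Wfdc12 10 and Serpinb11 15, counted from the top. On array 3 Tnfsf11 ranked 18013 and Serpinb11 18036 of 18193. Of the 8 genes, 7 exceeded all 15 arrays of the other groups on array 1, 7 on array 2 and 1 on array 3, where the shares of all genes were 9.47%, 10.4% and 8.37%. These counts use means over probe sets, and neither Wnt4 probe set alone put both arrays 2 and 3 above the 15. One Tnfrsf11b probe set gave 1.00 on array 2, below its 1.15 on RonTK+/+ array 1 at 6 weeks.

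Close relatives of these genes exceeded all 15 other arrays on both arrays 1 and 2 about as often as all genes did. The share was 6 of 95 genes in 5 family lists (6.32%), against 5.58% of all genes. None of the 95 had a ratio of 4 or more on either array, as few of all genes did (0.0989% and 0.0385%). Gjb6, another connexin gene of epithelia, gave 3.99, 1.76 and 1.02 on RonTK+/+ arrays 1, 2 and 3 at 7 weeks, against at most 1.21 on the 15 arrays outside the group. It was the 1 of 9 other connexin genes above the 15 arrays on both arrays 1 and 2. Of 11 other genes of the whey acidic protein family 1 did so, Wfdc18, with 2.81, 2.54 and 1.07 against at most 1.41. Among 32 Wnt and R-spondin pathway genes 3 did so. The Wnt ligand gene Wnt5b gave 2.99, 2.00 and 1.28, the R-spondin receptor gene Lgr6 gave 2.49, 2.18 and 1.01, and Ctnnb1, encoding beta-catenin, gave 1.24, 1.41 and 1.07. Among 31 TNF and TNF receptor genes 1 did so, Cd70, with 1.29, 1.25 and 1.00, and none of 12 other clade B serpins did. These genes were picked out by their values in the same arrays, and their ratios are a description.

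Proliferation genes were also higher on arrays 1 and 2 of RonTK+/+ at 7 weeks. Mki67, a marker of dividing cells, gave 1.71, 2.39 and 0.407 on RonTK+/+ arrays 1, 2 and 3 and 0.602, 0.363 and 0.229 on RonTK-/- arrays. Top2a, a topoisomerase of dividing cells, gave 1.34, 1.43 and 0.709 against 0.746, 0.669 and 0.598. Ccnd1, the cyclin D1 gene required for lobuloalveolar growth, gave 1.53, 1.67 and 0.673 against 1.05, 0.976 and 0.917. The mean log2 ratio over 29 cell cycle genes was 0.50, 0.79 and -0.75 on the 3 RonTK+/+ arrays and -0.45, -0.71 and -0.95 on the RonTK-/- arrays, so array 3 lay within the RonTK-/- range for this list too. The part of dividing cells in the values of the 8 genes was not tested.

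The hormone receptor genes upstream of RANKL, Pgr and Esr1, were not higher on those arrays. Pgr, the progesterone receptor, gave 1.27, 0.992 and 1.53 on RonTK+/+ arrays 1, 2 and 3 at 7 weeks and 1.37, 1.66 and 2.10 on RonTK-/- arrays. Esr1, the oestrogen receptor, gave 0.888, 0.930 and 0.990 against 1.13, 0.817 and 1.25. Elf5, the transcription factor of alveolar differentiation that lies downstream of RANKL and prolactin, gave 2.04, 1.60 and 1.34 against 1.66, 1.45 and 1.5, and array 1 alone exceeded the 15 arrays outside its group (at most 1.66). Id2, a RANK target in luminal cells, gave 1.14, 1.39 and 0.801 against 0.869, 0.775 and 0.845, and array 2 alone exceeded the 15 (at most 1.25). The groups overlapped for all 4 genes. Genes of milk proteins differed among themselves. For Lalba, alpha-lactalbumin, the ratios of 0.390 and 0.423 on arrays 1 and 2 were the lowest of all 18, array 3 gave 1.89, and the RonTK-/- arrays gave 5.28, 7.68 and 5.21. Csn2, beta-casein, gave 2.43, 1.43 and 1.00 against 1.90, 1.84 and 2.48, and was higher on arrays 1 and 2 than on array 3. Wap, whey acidic protein, gave 1.47, 0.731 and 1.02 against 1.87, 2.67 and 2.22, with the RonTK-/- arrays all above the RonTK+/+ ones.

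Of the named genes of RANK signalling, Nfkb2, Relb and Traf6 had ratios of at most 1.26 at 7 weeks. Id2 and Ccnd1, which are also in the RANK and NF-kB signalling list, reached 1.39 and 1.67 on RonTK+/+ array 2. Nfkb2 gave 1.07, 1.02 and 0.784 on RonTK+/+ arrays 1, 2 and 3 at 7 weeks and 0.891, 0.970 and 0.960 on RonTK-/- arrays. Relb gave 0.991, 1.26 and 0.595 against 0.593, 0.930 and 0.743, and Traf6 gave 0.958, 1.01 and 0.912 against 0.927, 0.871 and 0.907. For these 3 genes the highest ratios of the 6 arrays were on arrays 1 and 2, all within the range of the 15 arrays outside the group. Among Wnt pathway genes, Axin2, Lgr4, Lgr5, Rspo2, Rspo3, Wnt7b and Wnt10b lay between 0.777 and 1.29 on all 6 arrays at 7 weeks. Lef1 gave 0.144, 1.03 and 0.158 against 0.205, 0.144 and 0.147, and array 2 stood above the other 5. Wnt5a, another Wnt ligand gene, gave 0.583, 0.650 and 0.980 against 1.05, 1.24 and 0.994, and arrays 1 and 2 were the lowest of the 18. Areg, Prlr and Calca, other genes of the hormone response, had no probe set with that symbol alone.

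The lists of cell type markers show what else differed between these arrays. The luminal epithelium list (13 genes) had mean log2 ratios of 0.47, 0.42 and 0.51 on RonTK+/+ arrays 1, 2 and 3 at 7 weeks and of 0.50, 0.44 and 0.43 on the RonTK-/- arrays, so its mean did not separate the high arrays from the low ones. Krt18 and Krt8, the keratin genes of this list that were named whatever their values, did. Krt18 gave 0.939, 1.00 and 1.5 against 1.58, 1.25 and 1.37, and Krt8 gave 1.02, 1.12 and 1.28 against 1.38, 1.48 and 1.31. Arrays 1 and 2 were the lowest of the 6 for both. Krt19, another keratin gene of the list, was not among the named genes, and its ratios are not given. The basal epithelium list (12 genes) gave 0.45, 0.38 and 0.14 against 0.14, 0.11 and 0.26, highest on arrays 1 and 2. Of its keratin genes, the named Krt5 (1.71, 1.52 and 1.68 against 1.39, 1.40 and 1.45) and Krt14 (1.72, 1.51 and 1.58 against 1.37, 1.40 and 1.47) were higher on all 3 RonTK+/+ arrays. Ratios of Krt17, also in that list, are not given. Acta2, a myoepithelial actin, gave 1.33, 1.19 and 1.01 against 1.16, 1.10 and 1.35.

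The white adipocyte list (11 genes) moved with the 2 high arrays. It averaged -0.55, -0.16 and 0.11 on RonTK+/+ arrays 1, 2 and 3 against 0.19, 0.41 and 0.04 on RonTK-/- arrays, and array 1 was the lowest of all 18. The endothelium list (12 genes) was also lowest of the 6 on those arrays, with -0.04, -0.07 and 0.19 against 0.18, 0.45 and 0.26. The fibroblast list gave 0.02, 0.10 and -0.29 against -0.02, 0.05 and 0.18, and the macrophage list -0.26, -0.03 and -0.29 against -0.13, 0.14 and 0.13. The part of adipocyte, endothelial and epithelial content in the values of the 8 genes was not tested. The epidermis and hair list (18 genes) was between -0.06 and 0.06 on all 6 arrays. Lists of 10 T lymphocyte and 13 B lymphocyte genes were low on 5 of the 6 arrays and not on array 2 of RonTK+/+, where they averaged 0.08 and 0.16. On that array the skeletal muscle list (18 genes) averaged -5.47, against 0.14 to 0.43 on the other 5. Arrays 1 and 2 therefore carried like ratios of the 5 high genes at T lymphocyte list means of -2.54 and 0.08 and at skeletal muscle list means of 0.43 and -5.47.

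**Figure D2:**
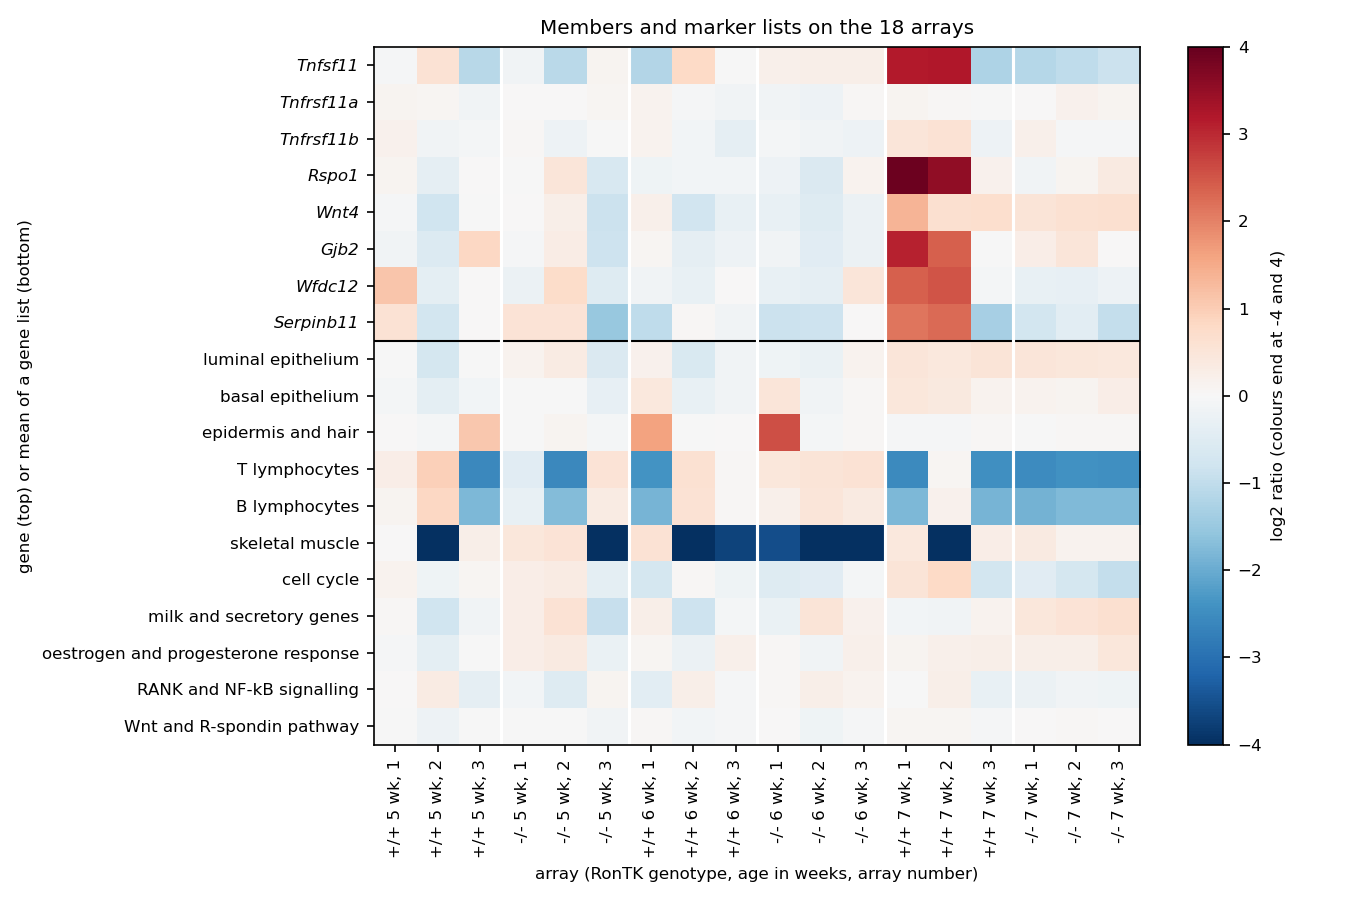
Log2 ratios of the 8 genes (upper rows) and mean log2 ratios of 11 gene lists (lower rows) on the 18 arrays (columns, grouped by RonTK genotype and age in weeks). Red is above and blue below a ratio of 1, with colours ending at -4 and 4 on the log2 scale. Arrays 1 and 2 of RonTK+/+ at 7 weeks are red for Tnfsf11, Rspo1, Gjb2, Wfdc12 and Serpinb11, while their lymphocyte and muscle lists differ.

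Between genotypes the 8 genes could be tested at 5 and 6 weeks, where no gene of the 8 passed the test. A gene was called at a Benjamini-Hochberg adjusted p under 0.05 over all genes in limma's moderated test on log2 ratios. At 5 weeks 0 of 8 were called (0.011% of all genes, 2 of 18193), and 0 had an unadjusted p under 0.05. RonTK-/- minus RonTK+/+ ran from -0.25 ± 0.57 (SE) for Wfdc12 to 0.08 ± 0.31 for Wnt4 on the log2 scale, each with an adjusted p of 0.999. At 6 weeks 0 of 8 were called (0.0165%, 3 genes), again with 0 at an unadjusted p under 0.05. The differences ran from -0.18 ± 0.80 (SE) for Serpinb11 to 0.36 ± 0.91 for Tnfsf11, with adjusted p between 0.850 and 0.981. The intervals bound what these arrays could show. For Tnfsf11 the 95% interval was -2.13 to 1.78 at 5 weeks and -1.60 to 2.31 at 6 weeks, and for Tnfrsf11a it was -0.15 to 0.22 and -0.28 to 0.10. The spread in these intervals includes that of RonTK+/+ at 7 weeks, and in a fit without that group, chosen after the data were seen, the Tnfsf11 interval at 5 weeks was -1.25 to 0.89 and 0 of 8 were called. For no gene did the change of the genotype difference from 5 to 6 weeks pass the test, with the lowest adjusted p of 0.744 for Tnfrsf11a.

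Between 5 and 6 weeks in RonTK+/+ glands 0 of 8 genes were called (0% of all genes, 0 of 18193, of which 759 had an unadjusted p under 0.05). The differences ran from -0.38 ± 0.57 (SE) for Wfdc12 to 0.06 ± 0.91 for Tnfsf11 on the log2 scale, with adjusted p of 1.00 for all 8. Across the 3 ages in RonTK-/- glands 0 of 8 were called by the moderated F test (0.0385%, 7 genes). The difference of 7 from 5 weeks ran from -0.63 ± 0.91 (SE) for Tnfsf11 to 0.79 ± 0.31 for Wnt4. Wnt4 was the 1 gene of the 8 with an unadjusted p under 0.05 (0.0180, adjusted p = 0.248), and its ratio was higher on all 3 RonTK-/- arrays at 7 weeks than on any at 5 or 6 weeks. The luminal epithelium list moved with Wnt4: its means were 0.43 to 0.50 on the RonTK-/- arrays at 7 weeks, against -0.58 to 0.31 at 5 weeks. With that list as a covariate the Wnt4 difference was 0.20 (adjusted p = 0.562), and without RonTK-/- array 3 at 5 weeks it was 0.46 (adjusted p = 0.183). With array weights, which give less weight to arrays that lie far from the fit, it was 0.62 (adjusted p = 0.0192) and called, among 5357 genes of all.

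**Figure D3:**
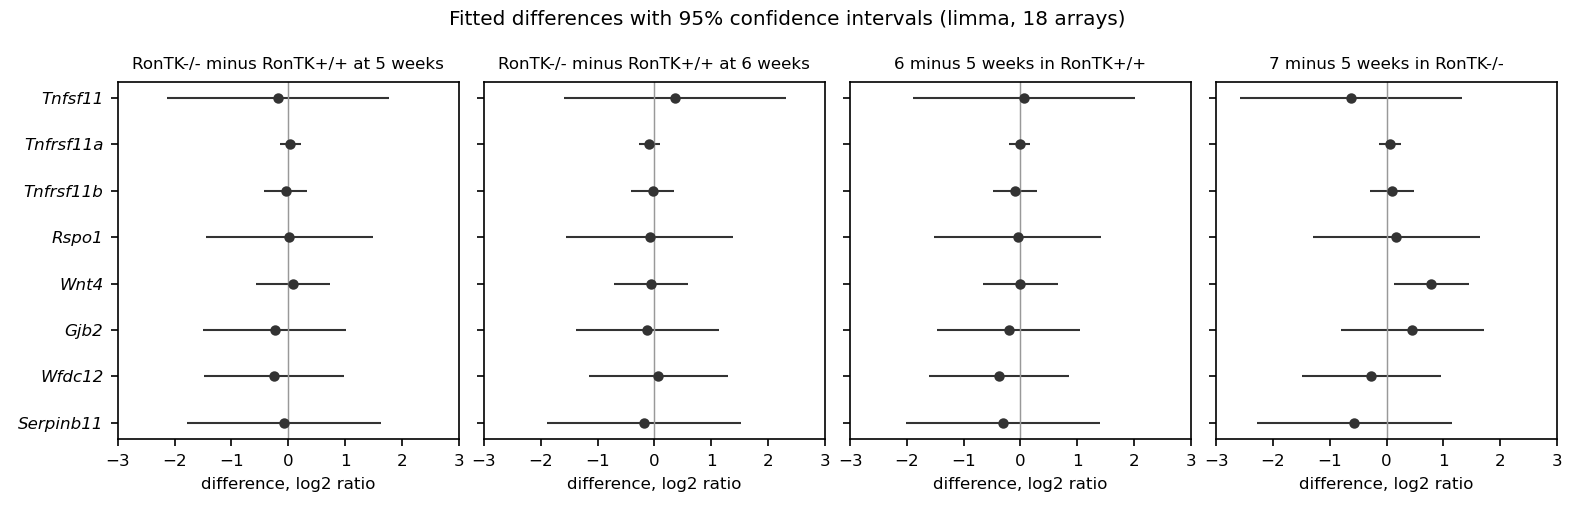
Fitted differences of the 8 genes on the log2 ratio scale (horizontal axes) in the 4 tested comparisons (panels). Points are limma estimates from 18 arrays in groups of 3 and lines are 95% confidence intervals. The lines cross 0 for all genes but Wnt4 from 5 to 7 weeks in RonTK-/- glands, and Tnfsf11 has the widest interval.

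The RANK, hormone and Wnt pathways were tested in the same fits through lists that leave out the 8 genes. In each of the 4 comparisons 0 genes were called of 19 in RANK and NF-kB signalling, 19 in the oestrogen and progesterone response, 32 in the Wnt and R-spondin pathway and 31 TNF and TNF receptor genes. At an unadjusted p under 0.05 the counts in that order were 0, 4, 0 and 0 between genotypes at 5 weeks, 1, 1, 2 and 3 at 6 weeks, 0, 1, 0 and 1 between 5 and 6 weeks in RonTK+/+, and 2, 3, 8 and 12 across ages in RonTK-/- glands. The shares of all 18193 genes with an unadjusted p under 0.05 were 3.42%, 6.15%, 4.17% and 17.5% in these 4 comparisons. Their median differences lay between -0.13 and 0.16 on the log2 scale at 5 weeks and between -0.07 and 0.20 at 6 weeks, where the medians over all genes were 0.01 and -0.01.

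Whether the genes vary with Tnfsf11 was asked on the 15 arrays outside RonTK+/+ at 7 weeks, with a mean for each group. There the genes that passed varied opposite to Tnfsf11. The slope is the change in a gene's log2 ratio per unit of log2 ratio of Tnfsf11. It was -0.50 ± 0.10 (SE, adjusted p = 0.00438) for Wnt4 and -0.54 ± 0.12 (adjusted p = 0.00628) for Gjb2, so both were lower where Tnfsf11 was higher. These were 2 of 7 genes called, where 25.1% of all 18192 genes were called (2424 with a positive and 2149 with a negative slope), so the count is near the background. The slopes of Rspo1 (-0.19 ± 0.14), Wfdc12 (-0.25 ± 0.22), Serpinb11 (-0.11 ± 0.31), Tnfrsf11b (-0.04 ± 0.08) and Tnfrsf11a (0.01 ± 0.06) were not called, with adjusted p between 0.397 and 0.892. Leaving out RonTK+/+ array 1 at 6 weeks gave 2529 calls over all genes and still both of these.

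**Figure D4:**
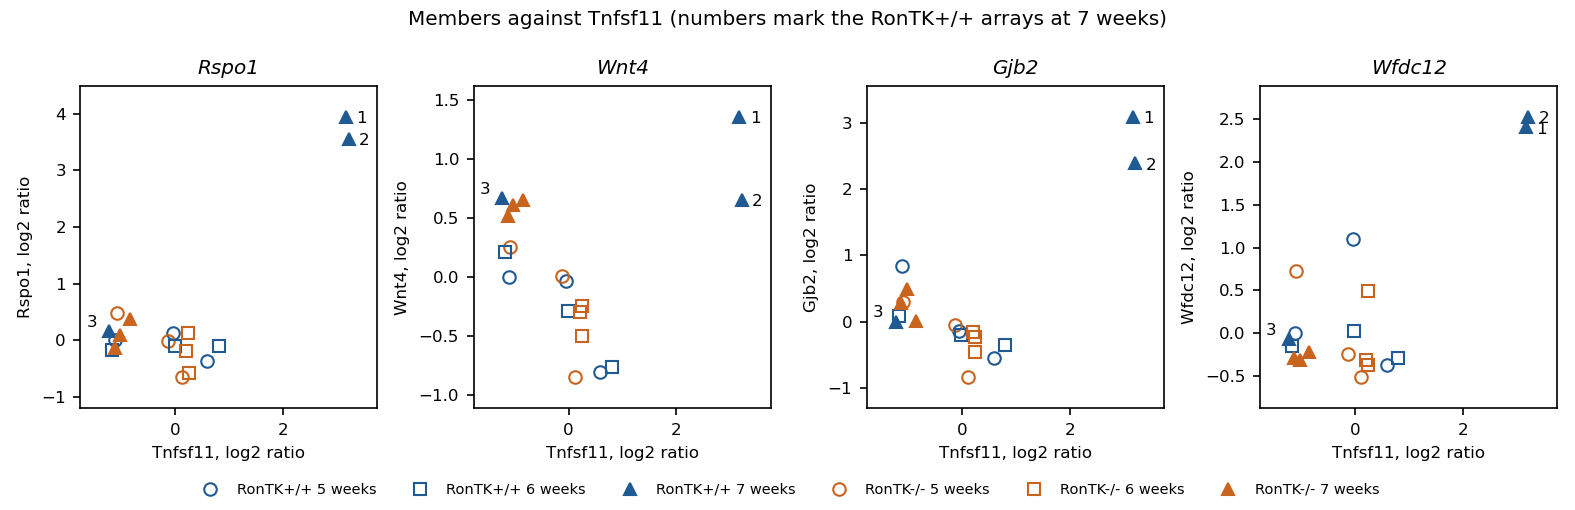
Log2 ratio of Rspo1, Wnt4, Gjb2 and Wfdc12 (vertical axes) against that of Tnfsf11 (horizontal axes) on the 18 arrays. Colour is the RonTK genotype, marker shape and fill the age, and numerals mark the RonTK+/+ arrays at 7 weeks. Arrays 1 and 2 lie alone at the upper right, and among the other 15 arrays outside that group Wnt4 and Gjb2 fall as Tnfsf11 rises, with slopes of -0.50 and -0.54.

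Several lists of cell type markers moved with Tnfsf11 on these 15 arrays. All 10 T lymphocyte genes and 12 of 13 B lymphocyte genes had called positive slopes, and all 18 skeletal muscle genes and 9 of 13 luminal epithelium genes had called negative ones. Of all genes, 13.3% had called positive and 11.8% called negative slopes. The slope was 0.68 ± 0.13 (SE, adjusted p = 0.00344) for Cd3e, a T cell receptor component, 2.65 ± 0.27 (adjusted p = 3.53e-05) for Ltb, the lymphotoxin beta gene of lymphoid tissue, and -0.51 ± 0.13 (adjusted p = 0.0141) for the luminal keratin gene Krt18. The T lymphocyte list averaged -2.59 to -2.40 on 8 of the 18 arrays and -0.44 to 0.94 on the other 10. Tnfsf11 lay between 0.427 and 0.556 on 7 of those 8 arrays, and the 8th was array 1 of RonTK+/+ at 7 weeks, with 8.97. On the other 10 it lay between 0.915 and 1.74, except for array 2 of RonTK+/+ at 7 weeks, with 9.27.

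With the luminal list as a covariate the slopes were -0.08 for Wnt4 (adjusted p = 0.653) and -0.35 for Gjb2 (adjusted p = 0.415), and 660 genes were called of all. With the skeletal muscle list they were -0.09 (adjusted p = 0.894) and -0.34 (adjusted p = 0.681). With the T lymphocyte list, a covariate added after the data were seen, the slope of Wnt4 was -0.43 and that of Gjb2 turned to 0.23, both with an adjusted p of 0.993, and 0 genes were called of all. The slopes of Rspo1 and Serpinb11 were then 0.49 ± 0.50 (SE) and 0.93 ± 1.13, with the same adjusted p. The relation of the genes to Tnfsf11 and their relation to these lists cannot be told apart on these arrays.

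**Figure D5:**
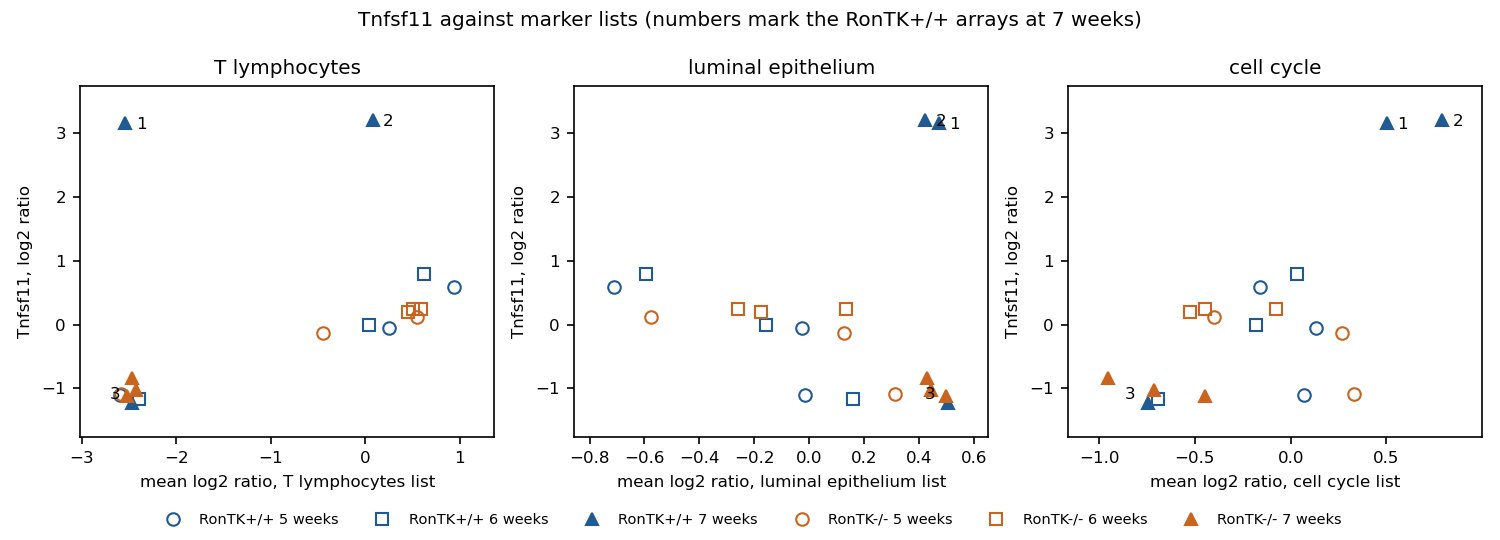
Log2 ratio of Tnfsf11 (vertical axes) against the mean log2 ratio of the T lymphocyte, luminal epithelium and cell cycle lists (horizontal axes) on the 18 arrays. Colour is the RonTK genotype, marker shape and fill the age, and numerals mark the RonTK+/+ arrays at 7 weeks. Outside arrays 1 and 2 of that group Tnfsf11 is between 0.427 and 0.556 as a ratio where the T lymphocyte list is under -2. The 2 high arrays lie at T lymphocyte list means of -2.54 (array 1) and 0.08 (array 2).

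Of all genes, 13.3% had called positive and 11.8% called negative slopes, against which the counts of the lists are read. In the pathway lists, 14 of 19 RANK and NF-kB signalling genes had called positive slopes and 0 negative ones, with a median of 0.27 against -0.01 over all genes. They included the NF-kB subunit genes Relb (0.94 ± 0.10, SE) and Nfkb2 (0.24 ± 0.03), Traf6, the adaptor of RANK (0.15 ± 0.04), and Id2 (0.28 ± 0.06). Of 31 TNF and TNF receptor genes 19 had called positive and 3 negative slopes. In the Wnt and R-spondin pathway 2 of 32 had called positive slopes, Lef1 (1.93 ± 0.20), a factor also of T lymphocytes, and Znrf3, and 11 negative ones, among them Lgr4 (-0.30 ± 0.05) and Wnt5a (-0.30 ± 0.07). Of 19 oestrogen and progesterone response genes 0 had called positive and 4 called negative slopes: Elf5 (-0.56 ± 0.08), Cited1, Gata3 and Wnt5a. Over all genes 11.8% had called negative slopes and 25.1% were called with either sign. Pgr (-0.30 ± 0.28) and Esr1 (-0.16 ± 0.09) were not called. Of 18 milk and secretory genes 1 had a positive and 12 a negative slope. These lists moved beside the lymphocyte and epithelial lists, and their own part was not tested.

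The correlation of log2 ratios with Tnfsf11 over all 18 arrays was 0.78 for Rspo1, 0.74 for Wfdc12, 0.73 for Serpinb11, 0.64 for Gjb2, 0.63 for Tnfrsf11b, 0.13 for Wnt4 and 0.04 for Tnfrsf11a. These values rest on arrays 1 and 2 of RonTK+/+ at 7 weeks. For deviations from the group means on the 15 other arrays the correlations were -0.36, -0.32, -0.10, -0.81, -0.18, -0.83 and 0.08 in the same order. Among themselves Rspo1 and the 3 co-varying genes stayed positive on both sets. Rspo1 correlated with Gjb2 at 0.95 over 18 arrays and 0.56 over the 15 deviations, with Wfdc12 at 0.93 and 0.78, with Serpinb11 at 0.85 and 0.76 and with Wnt4 at 0.69 and 0.70. All points share the scaling to RonTK+/+ medians and the tissue mix of each gland, and these correlations are descriptions.

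The 10 genes most like Tnfsf11 over the 18 arrays held none of the other 7 genes. They were Cdca7l (r = 0.96), Rnaseh2b, Slc39a4, 1110032F04Rik, Cadm1, Actl6a, Pold1, Rfc3, Cdc7 and Ncl (r = 0.92). Their range was narrow: Cdca7l gave 1.67, 1.81 and 0.900 on RonTK+/+ arrays 1, 2 and 3 at 7 weeks and 0.743 to 1.07 on the 15 others. Rfc3, a DNA replication factor, gave 1.71, 2.00 and 0.910. Rspo1 ranked 274 of the 18192 other genes on this measure, Wfdc12 446, Serpinb11 495 and Gjb2 987. On the deviations of the 15 arrays the 10 most like were Ralgps2 (r = 0.99), Rtn1, Il18r1, St8sia6, Dnase1l3, Bach2, Cklf, Pfn1, Arhgdib and Ap1s3 (r = 0.98). On array 1 of RonTK+/+ at 7 weeks, where Tnfsf11 was 8.97, these gave between 0.276 (Arhgdib) and 1.13 (Rtn1), and on array 2 between 1.06 (Dnase1l3) and 1.80 (Ap1s3).

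The targeted gene, Mst1r, was measured by 1 probe set, with ratios of 0.808 to 1.40 on RonTK+/+ and 0.740 to 2.10 on RonTK-/- arrays. No source used here says where this probe set lies relative to the deletion, and it was therefore no check of the genotype labels.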

How the data were processed

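Per the labels' protocols, fat was spun off the TriZol preparation, and the RNA was amplified in 1 round, biotin-labelled and hybridised to Affymetrix mouse arrays. The authors' deposited values are linear ratios: this was read from the values, since 87.4% of 45101 probe sets have a RonTK+/+ median within 1e-04 of 1. The software and the probe summary were not given in the sources used here. Ratios ran from 0.01 to 122.6, and signal over background is unknown, so dim probe sets could not be filtered.

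Of the probe sets, 64 were controls, 34945 had 1 gene symbol in the platform annotation, 932 several and 9160 none. A gene's value is the mean log2 ratio of its probe sets with 1 symbol. Models were fitted over all genes with limma 3.58.1 in R 4.3.3 with data.table (1.17.8), with a mean for each of the 6 groups, on steps tested on simulated data, and figures were drawn with matplotlib 3.10.9 in Python 3.11.15. Array weights used the gene-by-gene method. No 2 arrays held identical values (0 pairs). Promoters are from RefSeq's table and were used for sequence only, since the files name no build. The 8 genes, the gene lists and the tests were chosen with earlier results of these data known. Genes named are the 8, the 10 most like Tnfsf11 on each measure, a fixed set of 30 hormone, milk, RANK, Wnt, keratin and proliferation genes named whatever their values, list genes that were called, and family genes picked by value where the text says so. Alternatives were quantile normalization, array weights, a replicate block, covariates, single probe sets, only the groups compared and leaving out each array.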

Additional observations from a re-analysis of the deposited data

How the results depend on the processing

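For the 8 genes, the count called between genotypes at 5 and 6 weeks and between 5 and 6 weeks in RonTK+/+ was 0 under each alternative run. Across ages in RonTK-/- it was 0 under each but array weights, with 1 (Wnt4). The count over all genes across ages in RonTK-/- was 5357 with array weights, 2 after quantile normalization, 0 with the luminal, 11 with the muscle, 79 with the epidermis and 0 with the T lymphocyte list as covariate, 11 for single probe sets, 0 for only the groups compared and 1 without RonTK+/+ at 7 weeks. Leaving out 1 array gave 0 to 30. Between genotypes, quantile normalization gave 0 genes at 5 and 0 at 6 weeks, array weights 10 and 8, single probe sets 10 and 10, only the groups compared 0 and 1, and the muscle covariate 6 at 5 weeks. For the relation to Tnfsf11 the counts were 660 (luminal covariate), 442 (muscle), 3006 (epidermis), 0 (T lymphocytes) and 8023 (single probe sets), and 2529 to 5163 without 1 array. The genes called of 7 were 0 with the luminal, muscle and T lymphocyte covariates, where the slopes of Wnt4 and Gjb2 lost their calls and Gjb2 turned to 0.23 with the last. The T lymphocyte covariate and the fit without RonTK+/+ at 7 weeks were chosen after seeing the data. Where counts moved, the cause was not tested. As a replicate block the array number gave 1 gene across ages in RonTK-/- and changed no call of the 8. The labels do not say that it marks a litter or day, and deviations of same-numbered arrays correlated between -0.82 and 0.63. With 3 arrays a group the precision of every value is limited.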
